A study of Mus musculus with 12 samples.

Results

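The 10 genes described here encode checkpoint ligands, costimulatory molecules and inhibitory receptors of myeloid cells. They are Cd274, Pdcd1lg2, Havcr2, Lgals9, Ido1, Cd80, Cd86, Cd200r1, Sirpa and Cd47. They were chosen by name as a functional group, with earlier results of these data known, and all 10 were found among the 19938 genes that the array annotation names with a single symbol. Cd80 and Cd47 had 2 probe sets each, of which the brighter over the 12 arrays stands for the gene, and the other 8 genes had 1.

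Cells were sorted by flow cytometry from the brain and blood of C57BL/6 mice, and each population was measured on a single Affymetrix Mouse Gene ST array after RNA amplification. Mice bearing GL261 gliomas, grown from a mouse glioma cell line (luciferase-expressing by the study's methods) implanted into the brain at 7 weeks of age and examined 2 weeks later, gave 8 arrays. These were tumor microglia (MG), tumor macrophages (MP), tumor Gr1+ and tumor Gr1- cells from the brain, and Gr1+, Gr1-, macrophage high and macrophage low cells from the blood. Normal mice of the same strain gave 4 arrays, which were normal MG and normal MP from the brain and macrophage high and macrophage low cells from the blood. The labels give an age of 7 weeks for these mice too. They also carry the implantation text for them, but give their disease state as normal. By the study's methods MG were sorted as CD11b+/CD45low and MP as CD11b+/CD45high cells. What "high" and "low" stand for in the blood labels, the gates of the Gr1 populations and the number of mice behind each array are not given in the sources used here.

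Each condition had 1 array, so no difference below has a replicate error or a p-value. Values are log2 signals, and a difference of 1 is 2-fold. The background of an array is the 95th percentile of its 1027 olfactory receptor genes, which these cells should not use, and it lay between 8.93 and 10.09. The SD of the same difference over the olfactory receptor genes, between 0.35 and 0.65, is given as a yardstick of noise between 2 arrays. It is not a replicate error. Probes differ in brightness, so levels are compared between arrays for each gene and not between genes. In sorted bulk samples, fewer cells of a type and less RNA per cell cannot be told apart.

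T cells need a costimulatory signal beside the antigen, which CD80 and CD86 on the presenting cell deliver through CD28, while CTLA-4 competes for the same ligands. PD-L1 (Cd274) and PD-L2 (Pdcd1lg2) restrain T cells through PD-1, and both can be induced by interferons, which act through JAK kinases, STAT proteins and the transcription factor IRF1. TIM-3 (Havcr2) is an inhibitory receptor of T cells and myeloid cells, and galectin-9 (Lgals9) is a secreted lectin described as a ligand of it. SIRPa (Sirpa) is the myeloid receptor that recognizes CD47 on other cells and holds back phagocytosis, CD200R1 is the myeloid receptor for CD200, and IDO1 is the enzyme that opens tryptophan breakdown along the kynurenine pathway.

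Several arrays carried markers of cells other than those their labels name. Of 9 NK cell markers, 9 were above background on the tumor-bearing blood macrophage low array and 7 on the normal blood macrophage high array, with medians of 12.51 and 11.12. On these arrays 0 of 12 neutrophil markers were above background, and 3 and 0 of 8 monocyte markers. The tumor-bearing macrophage high and the normal macrophage low array had 9 of 12 neutrophil markers each above background and 0 NK cell markers. They also had 8 and 7 of 8 monocyte markers above background, with medians of 11.21 and 10.77. All 4 blood macrophage arrays had 5 of 5 B cell markers above background. Whether the labels of 2 of these 4 arrays were exchanged cannot be told from these values, and an exchange would change or turn the blood macrophage differences below. The array labelled blood Gr1- had 11 of 11 microglia markers above background, with a median of 11.45, 5 of 5 B cell markers, and the myelin genes Mbp at 11.49 and Mobp at 10.77, so its markers go against its label and whether it is a blood sample is not known. Normal MP had 12 of 12 neutrophil and 6 of 6 border macrophage markers. Tumor MP had 11 of 11 microglia markers above background, with a median of 11.78, and tumor MG 10 of 11, with a median of 11.48. The normal blood macrophage high array also had the highest background, 10.09, and 11.2% of its genes lay above it, against 26.3% to 39.1% on the other arrays. Results that rest on these arrays are given under the labels, with these values beside them. The part that the markers play in any result was not tested.

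Cells sorted from gliomas carried more Cd274 than the normal brain cells of the same name. Cd274 was below background in normal MG and normal MP and above it in all 4 tumor populations. Pdcd1lg2 was above background in Gr1+ cells of tumor and blood and in tumor Gr1- cells, with its highest level in tumor Gr1+ cells. Sirpa, Havcr2, Cd86 and Lgals9 were above background on all 6 brain arrays, in normal as in tumor cells, and Cd47 on all 12 arrays. Ido1 and Cd200r1 were above background on none. Of the 120 values of the 10 genes, 66 were above the background of their array.

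**Figure D1:**
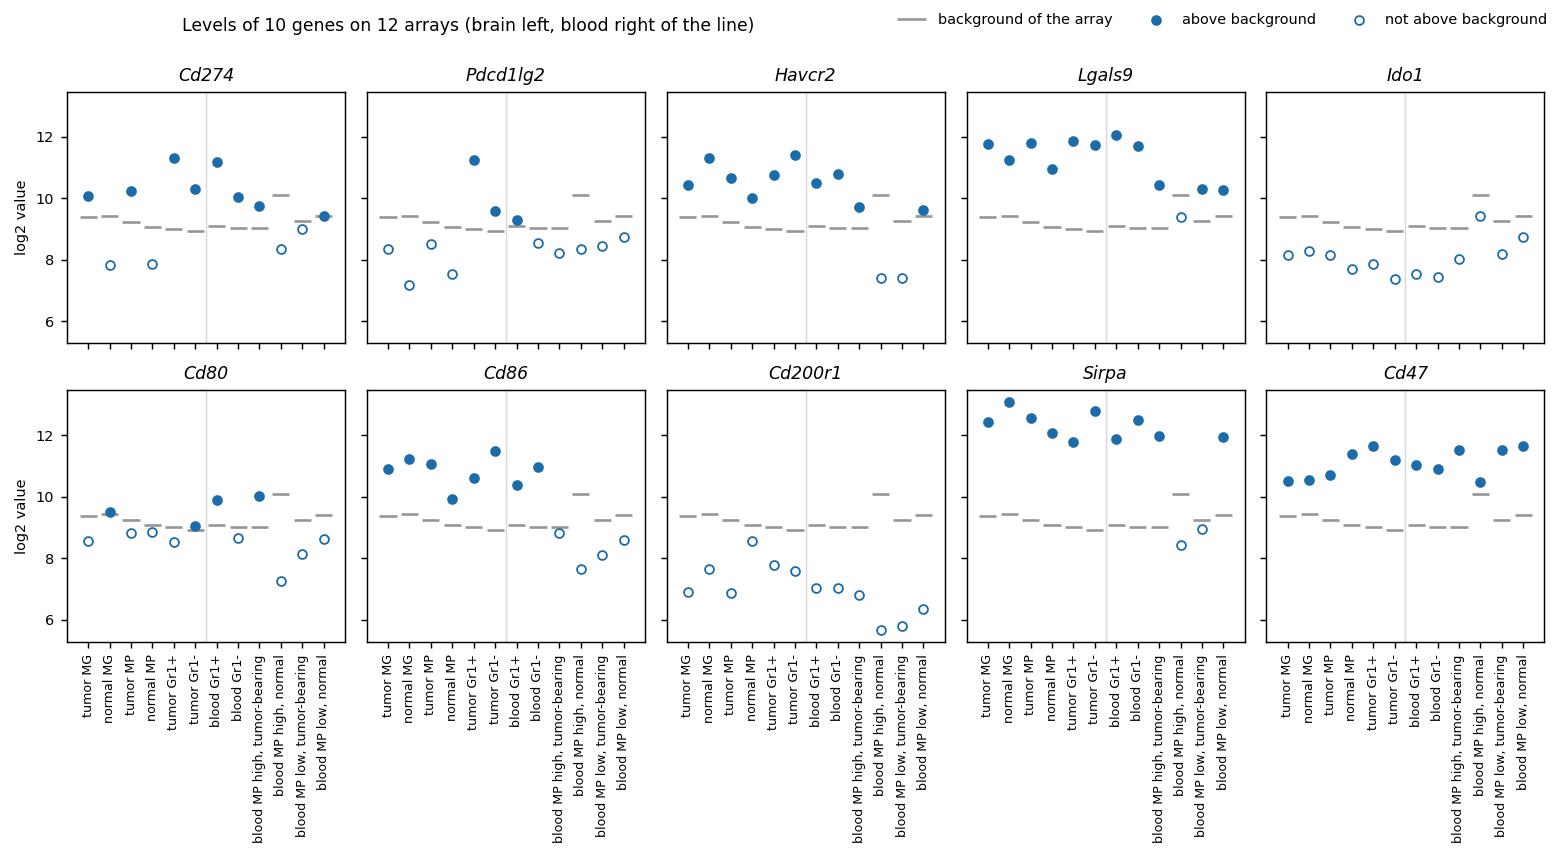
Log2 value (vertical axis) of each of the 10 genes along the 12 arrays (horizontal axis), with filled points above and open points not above the background of the array, which a grey dash marks. Cd274 is open on the arrays of normal MG and normal MP, at 7.83 and 7.87, and filled on the 4 tumor brain arrays.

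Some of the comparisons ask how cells taken from a glioma differ from their normal or circulating counterparts, and the others set populations of the same site or blood cells of tumor-bearing and normal mice side by side. The contrast of tumor MG with normal MG had a median difference of -0.22 over the 10 genes, beside -0.09 over all genes, and that of tumor MP with normal MP 0.58, beside 0.12. In tumor MG against normal MG, 2 of the 10 genes (Cd274 and Pdcd1lg2) were at least 2-fold higher, beside 2.44% of all genes, and 0 were at least 2-fold lower, beside 3.61% of all genes. With dim values raised to background, 0 were. In tumor MP against normal MP, 2 (Cd274 and Cd86) were higher, beside 1.65% of all genes, and 1 (Cd200r1) was lower, beside 3.58%. Between the normal cells, MP against MG, 0 of the 10 were higher, where 4.35% of all genes were, and 3 (Havcr2, Cd86 and Sirpa) were lower, where 3.11% were. After median centring or quantile normalization Sirpa dropped out and Cd200r1, below background on both arrays, came in, so that 1 was higher and 2 were lower. Tumor MP against tumor MG had 0 of the 10 higher and 0 lower, beside 0.186% and 0.155% of all genes. The largest difference of a member there was 0.28, and over all genes the arrays gave Pearson's r = 0.975 (across genes, which are not independent replicates). Of 11 microglia and 8 monocyte markers, 0 were 2-fold apart between these arrays. The part of cell content in this likeness was not tested.

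Tumor Gr1+ cells against tumor Gr1- cells had 2 of the 10 (Cd274 and Pdcd1lg2) at least 2-fold higher and 0 lower, beside 2.88% and 5.12% of all genes. After quantile normalization Cd274 was 0.91 higher and Sirpa 1.06 lower, which gave 1 higher and 1 lower. Blood Gr1+ against blood Gr1- cells also had 2 (Cd274 and Cd80) higher and 0 lower, beside 3.2% and 4.31%, of which Cd80 fell under 2-fold with dim values raised to background (0.87) and with the mean of its probe sets. Tumor Gr1+ against blood Gr1+ cells had 1 (Pdcd1lg2) higher and 1 (Cd80) lower, beside 1.02% and 2.97%, and with dim values raised Cd80 was no longer 2-fold apart (-0.88). Comparisons that share an array, such as normal MG, tumor MG or tumor Gr1+, are not independent of each other.

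**Figure D2:**
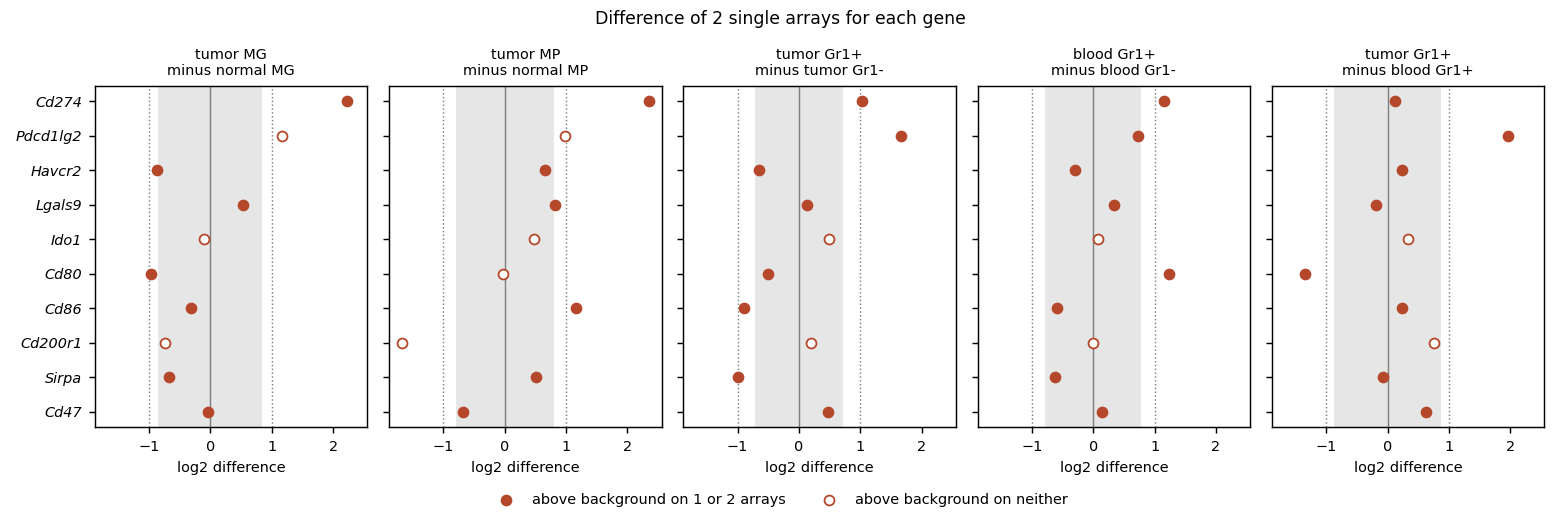
Log2 difference of each gene in 5 comparisons of 2 single arrays each, with dotted lines at 2-fold and grey bands reaching 2 SD of the olfactory receptor genes either way. Cd274 lies past the dotted line in 4 of the 5 comparisons, at 2.23 and 2.35 against normal arrays where it was below background and at 1.02 and 1.15 between Gr1 populations, and near 0 between tumor and blood Gr1+ cells, and Pdcd1lg2 stands out at 1.97 there.

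The PD-1 ligand genes come first. Cd274 and Pdcd1lg2 are neighbours on chromosome 19, with 0 coding genes between them, and Jak2, which encodes a kinase of the interferon-gamma receptor, lies 3 coding genes from Cd274. Because both genes were brightest in tumor Gr1+ cells, the 145 bases before their start sites are shown, from RefSeq on the mouse build GRCm38.p6, at chr19:29367293-29367437 for Cd274 and chr19:29410774-29410918 for Pdcd1lg2, both on the plus strand. Lgals9, at chr11:78984925-78985069 on the minus strand, is shown with them because it was the gene among the 6 with a promoter in the table that held a searched motif, and the capitals mark that match.
Cd274: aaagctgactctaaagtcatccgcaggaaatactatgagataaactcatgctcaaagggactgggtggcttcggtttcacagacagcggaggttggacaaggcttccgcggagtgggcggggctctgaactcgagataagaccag
Pdcd1lg2: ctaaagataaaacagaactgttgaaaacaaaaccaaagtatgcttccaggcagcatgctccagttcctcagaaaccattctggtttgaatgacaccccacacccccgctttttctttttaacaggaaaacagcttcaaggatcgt
Lgals9: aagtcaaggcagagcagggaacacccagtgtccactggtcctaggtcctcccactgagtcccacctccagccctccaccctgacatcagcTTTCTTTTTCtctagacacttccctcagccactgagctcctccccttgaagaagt

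In windows of 300 bases around the start sites, both strands were searched for the core of the interferon-stimulated response element, GAAANNGAAA, and for the gamma-activated site, TTCNNNGAA. Lgals9 held 2 matches of the first, from 55 to 46 bases before the start, which is the match in capitals above, read on the opposite strand, and from 15 to 24 bases after the start, outside the stretch shown. Of all 32851 promoters in the table, 3.44% held this motif and 8.30% held the gamma-activated site. Havcr2, Cd80, Cd47, Cd274 and Pdcd1lg2 held neither, which says only that these letters are not in these windows. A match is a description of the sequence and not a site of binding.

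Cd274 measured 10.06 in tumor MG, 10.22 in tumor MP, 11.31 in tumor Gr1+ and 10.29 in tumor Gr1- cells, against 7.83 in normal MG and 7.87 in normal MP. In blood it measured 11.18 in Gr1+ and 10.02 in Gr1- cells. The 4 brain tumor arrays thus all lay above both normal brain arrays. They are single arrays of different populations and not replicates, and the share of all genes that part the same way was not counted. The measured differences were 2.23 in MG and 2.35 in MP. As the normal arrays give only a bound, the fold of Cd274 was at least 1.54 for tumor over normal MG, which does not reach 2-fold, and at least 2.22 for tumor over normal MP. Normal MP differed from normal MG by 0.04, both below background, and tumor MP from tumor MG by 0.16.

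Gr1+ cells had more Cd274 than Gr1- cells at both sites. The difference was 1.02 in the tumor, 2.9 SD, and 1.15 in blood, 3.0 SD, with all of these arrays above background. Tumor and blood Gr1+ cells differed by 0.13, under 1 SD (0.43). The array labelled blood Gr1-, with its 11 microglia markers, measured 10.02, close to tumor MG and tumor MP.

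Pdcd1lg2 measured 11.24 in tumor Gr1+, 9.59 in tumor Gr1- and, in the circulation, 9.28 in Gr1+ cells, and lay below background on the other 9 arrays, between 7.18 and 8.74. Within the tumor, Gr1+ cells were 1.65 log2 units above Gr1- cells, 4.7 SD or 3.15-fold. Against blood Gr1+ cells the difference was 1.97, 4.6 SD or 3.91-fold, larger than that of 99.9% of all genes. Here the PD-1 ligands parted, since Cd274 differed by only 0.13 between tumor and blood Gr1+ cells. In MG and MP the level was below background in tumor and normal cells alike, at 8.34 in tumor MG against 7.18 in normal MG, and at 8.52 in tumor MP against 7.53 in normal MP, so that the differences of 1.16 and 0.99 carry little information.

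The cells behind these contrasts also differed in their markers. Tumor Gr1+ cells had 8 of 8 monocyte and 5 of 12 neutrophil markers at least 2-fold higher than tumor Gr1- cells, beside 2.88% of all genes. At least 2-fold lower were 11 of 11 microglia, 8 of 9 NK cell and 5 of 8 dendritic cell markers, beside 5.12% of all genes. Only 4 of the 9 NK cell and 2 of the 12 neutrophil markers were above background on either array. Against blood Gr1+ cells, tumor Gr1+ cells had 12 of 12 neutrophil markers at least 2-fold lower, beside 2.97% of all genes. Of these 12, 9 were above background on either array. In the same comparison 0 of 8 monocyte markers were 2-fold apart. The neutrophil median was 8.03 in tumor Gr1+ against 11.83 in blood Gr1+ cells. Of the other brain cell markers, 2 of 9 were at least 2-fold lower in that comparison, Mbp at 9.41 in tumor against 11.16 in blood Gr1+ cells and Mobp at 8.66 in tumor against 10.53 in blood Gr1+ cells, so that the array labelled blood carried more myelin message. Blood Gr1+ against blood Gr1- cells had 12 of 12 neutrophil and 7 of 8 monocyte markers at least 2-fold higher, beside 3.2% of all genes. Of these 12 neutrophil markers too, 9 were above background on either array. At least 2-fold lower were 11 of 11 microglia and 5 of 5 B cell markers, beside 4.31% of all genes. In tumor MG, 7 of 8 monocyte markers were at least 2-fold higher and 6 of 11 microglia markers at least 2-fold lower than in normal MG. In tumor MP, 11 of 12 neutrophil markers and 6 of 6 border macrophage markers were at least 2-fold lower than in normal MP. Of all genes, 3.58% were lower and 1.65% higher by this measure. Of 11 microglia markers 4 passed 2-fold upward and 0 downward, with a median difference of 0.82. Normal MP against normal MG had 11 of 11 microglia markers at least 2-fold lower, beside 3.11% of all genes. At least 2-fold higher were 11 of 12 neutrophil, 8 of 8 monocyte and 6 of 6 border macrophage markers, beside 4.35%. Of 9 markers of other brain cells, 5 were at least 2-fold lower in tumor than in normal MG, and 5 in tumor than in normal MP. T cell markers were above background in 2 to 4 of 7 on each of the 12 arrays. Their part in the levels of the 10 genes was not tested.

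Of 11 genes on the route from the interferon receptors to IRF1, 10 were measured. In tumor MG, Stat2, which carries the type I interferon signal, measured 11.25 against 8.83 in normal MG, and Irf1 10.55 against 8.94. Both were below background in normal MG, and with these values raised to background the differences were 1.81 for Stat2 and 1.12 for Irf1. In tumor MP against normal MP, Irf1 was 1.32 and Stat2 1.14 higher. These were the 2 genes of the list at least 2-fold higher in each comparison, and 0 were lower. In tumor Gr1+ against tumor Gr1- cells Irf1 was 1.14 higher and was the only gene of the list past 2-fold, and in blood Gr1+ against Gr1- cells Irf1 was 1.53 and Jak2 1.02 higher. Jak2 measured 12.08 in tumor Gr1+ and 11.29 in tumor Gr1- cells. The receptor gene Ifngr1 went the other way in tumor MG, at 11.60 against 12.58 in normal MG. Over the list, the median difference was 0.38 in tumor MG and 0.11 in tumor MP, beside -0.09 and 0.12 over all genes.

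The arrays high in Cd274 were also high in Irf1. Among 8232 genes above background on at least 3 arrays, those with the highest Pearson's r with Cd274 were Ddx58 (r = 0.954), which encodes the RNA sensor RIG-I, Zbp1 (r = 0.948), a nucleic acid sensor, and Irf1 (r = 0.945). Without normal MG and normal MP, the arrays farthest from the median of Cd274, r was 0.947, 0.983 and 0.943. Irf1 measured 11.56 in Gr1+ cells of the tumor and 12.10 in those of the blood, and 8.94 in normal MG and 8.74 on the normal blood macrophage high array. Stat2 followed Cd274 as well (r = 0.912, and 0.974 over 10 arrays). The genes most like Pdcd1lg2 were Thoc6 (r = 0.886), Nmi (r = 0.882) and Slfn10-ps (r = 0.870), but without normal MG and tumor Gr1+ cells r was 0.554, 0.671 and 0.733, so that these rest on those arrays. Cd274 and Pdcd1lg2 themselves gave r = 0.812 over 12 arrays, and 0.695 without normal MG and normal MP. These correlations are over arrays of different cell populations with unequal backgrounds and are given as a description.

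**Figure D3:**
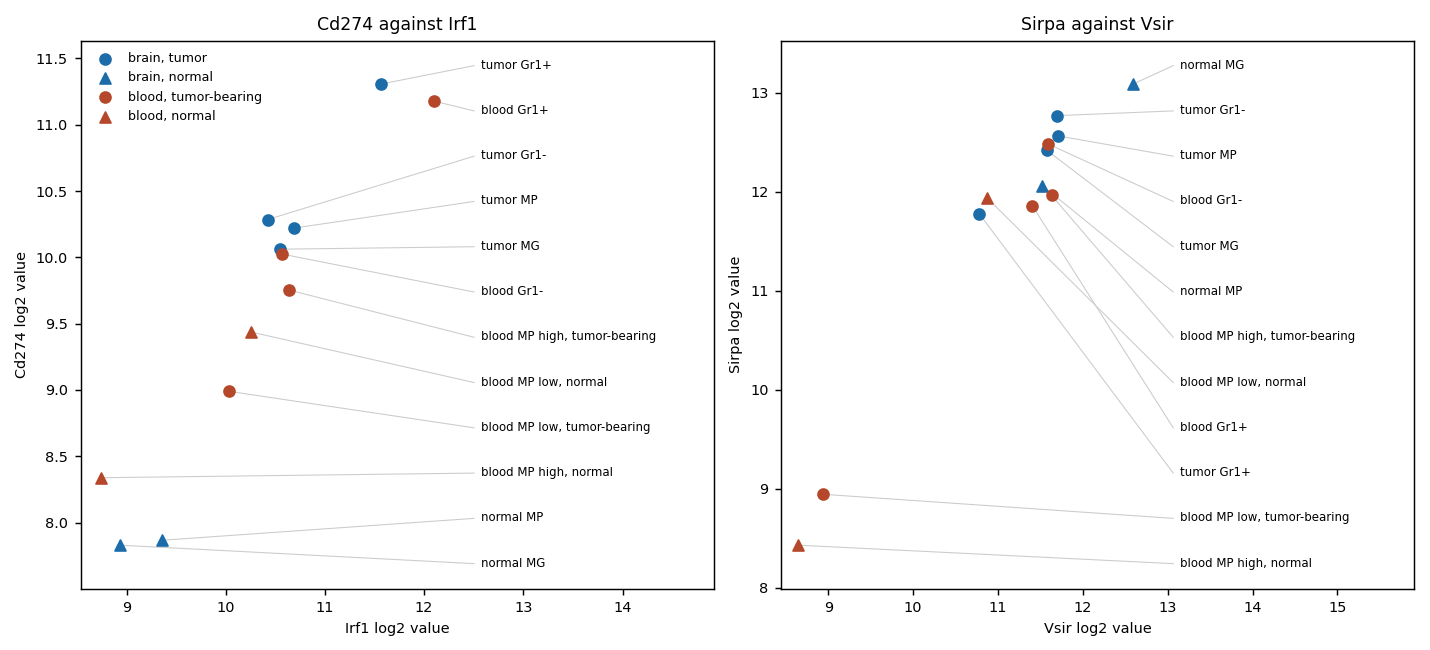
Log2 values of Cd274 against Irf1 (left) and of Sirpa against Vsir (right), each point 1 of the 12 arrays, coloured by brain or blood and shaped by tumor-bearing or normal. Cd274 lies low together with Irf1 in normal MG, normal MP and the normal blood macrophage high array, and Sirpa and Vsir are low together on the blood macrophage arrays with NK cell markers.

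Havcr2 (TIM-3) was above background on 10 of the 12 arrays and highest in tumor Gr1- cells. It measured 10.42 in tumor MG, 10.66 in tumor MP, 10.75 in tumor Gr1+ and 11.40 in tumor Gr1- cells, against 11.29 in normal MG and 10.00 in normal MP. Tumor MG was 0.87 lower than normal MG, 2.1 SD, while tumor MP was 0.66 higher than normal MP, 1.7 SD. The normal cells differed more than the tumor cells did, by -1.29 for normal MP against normal MG (2.44-fold lower) and by 0.24 for tumor MP against tumor MG. Tumor Gr1+ cells were 0.65 lower than tumor Gr1- cells, and blood Gr1+ cells, at 10.50, were 0.29 lower than blood Gr1- cells, at 10.79. The genes most like Havcr2 were Frrs1 (r = 0.987), Lair1 (r = 0.978), an inhibitory collagen receptor, and Grn (r = 0.974), which encodes progranulin, and r lay between 0.849 and 0.939 without the blood macrophage arrays that carried NK cell markers.

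Lgals9 (galectin-9) was above background on 11 of the 12 arrays and varied little among the 4 tumor arrays of the brain. It measured 11.76 in tumor MG, 11.78 in tumor MP, 11.86 in tumor Gr1+ and 11.73 in tumor Gr1- cells, against 11.23 in normal MG and 10.96 in normal MP. The 4 tumor arrays lay within 0.13 of each other and above both normal arrays. The share of all genes that part this way was not counted here either. The difference was 0.53 in MG, 1.3 SD, and 0.82 in MP, 2.1 SD or 1.76-fold, and neither reached 2-fold. These were larger than the differences of 94.4% of all genes in MG and 96.9% in MP. Blood Gr1+ cells had the highest level of all 12 arrays, 12.04, against 11.70 in blood Gr1- cells. The highest r with Lgals9 was that of Tcirg1 (r = 0.987), a subunit of the lysosomal proton pump. Cars (r = 0.985), the cysteinyl-tRNA synthetase, and Tor3a (r = 0.975) came next. Without the normal blood arrays r was between 0.974 and 0.985 for these genes.

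Of the B7 costimulators, Cd86 was above background on all 6 brain arrays and Cd80 seldom. Cd86 measured 10.91 in tumor MG, 11.07 in tumor MP, 10.60 in tumor Gr1+ and 11.50 in tumor Gr1- cells, against 11.23 in normal MG and 9.91 in normal MP. Normal MP was thus the lowest of the brain arrays and tumor Gr1- the highest. Beside the microglia markers that were higher in tumor than in normal MP and lower in normal MP than in normal MG, tumor MP was 1.16 higher than normal MP, 3.0 SD or 2.24-fold, larger than the difference of 99.0% of all genes, whereas tumor MG was 0.32 lower than normal MG, under 1 SD (0.41). Normal MP was 1.32 lower than normal MG, 2.49-fold. Tumor Gr1+ cells were 0.90 lower than tumor Gr1- cells, 2.5 SD, and blood Gr1+ cells, at 10.37, were 0.59 lower than blood Gr1- cells, at 10.96.

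On the 4 blood macrophage arrays Cd86 lay below background, between 7.65 and 8.82. Its nearest genes were Frmd4a (r = 0.991), Lgmn (r = 0.982), which encodes the lysosomal protease legumain, and P4ha1 (r = 0.982), and without the 2 blood macrophage arrays that carried NK cell markers r was still between 0.972 and 0.980. Icosl, the ligand of the costimulatory receptor ICOS, followed Cd86 too (r = 0.948, and 0.912 over 10 arrays), at 10.25 in tumor MG and 10.59 in tumor Gr1- cells, against 10.12 in normal MG.

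Cd80 was above background on 4 arrays, normal MG (9.51), tumor Gr1- cells (9.04), blood Gr1+ cells (9.89) and the tumor-bearing blood macrophage high array (10.01). On the other arrays it lay between 7.27 and 8.85. Tumor MG, at 8.55, was 0.96 lower than normal MG, but with the dim array set to its background only a fold of at least 1.10 can be stated. Blood Gr1+ cells were 1.24 higher than blood Gr1- cells, at least 1.82-fold. Tumor Gr1+ cells, at 8.54, were 1.35 lower than blood Gr1+ cells, at least 1.84-fold. The higher of these arrays, blood Gr1+ and the tumor-bearing macrophage high array, both had 9 of 12 neutrophil markers above background, but so did the normal macrophage low array, where Cd80 was 8.63, and normal MP had 12 of 12 with Cd80 at 8.85. The second Cd80 probe set was above background on 1 array, at 9.71 on the tumor-bearing macrophage high array, and its r with the first was 0.545, so the probe sets disagree in part. Slc35a5 (r = 0.945), Ccdc186 (r = 0.942) and Rffl (r = 0.921) were the genes most like Cd80.

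Sirpa was above background on 10 of the 12 arrays and highest in normal MG. It measured 12.42 in tumor MG, 12.56 in tumor MP, 11.78 in tumor Gr1+ and 12.77 in tumor Gr1- cells, against 13.09 in normal MG and 12.06 in normal MP. Tumor MG was 0.67 lower than normal MG, 1.6 SD, and tumor MP was 0.50 higher than normal MP, 1.3 SD. As with Havcr2 and Cd86, the gap between the normal cells, -1.03 for MP against MG (2.04-fold lower), was wider than the 0.14 between the tumor cells. Tumor Gr1+ cells were 0.99 lower than tumor Gr1- cells, 2.8 SD, and blood Gr1+ cells, at 11.86, were 0.62 lower than blood Gr1- cells, at 12.48. Sirpa, Havcr2 and Cd86 all measured lower in Gr1+ than in Gr1- cells at both sites, beside Tmem119, a microglia marker, at 9.40 in tumor Gr1+ against 12.56 in tumor Gr1- cells, and, on the blood arrays, at 9.37 in Gr1+ cells against 12.17 on that labelled Gr1-.

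The genes with the highest r with Sirpa were Marcks (r = 0.995), Csf1r (r = 0.991) and Lpcat2 (r = 0.987). Csf1r encodes the receptor for the growth factor that microglia and macrophages depend on. Without the 2 blood macrophage arrays with NK cell markers r was 0.951, 0.896 and 0.948. Vsir, which encodes the checkpoint protein VISTA, gave r = 0.975, and 0.834 over 10 arrays. Vsir measured 11.57 in tumor MG against 12.59 in normal MG, 1.02 lower, and was the 1 gene of 8 further B7 and nectin family ligands past 2-fold in that comparison. In tumor MP it measured 11.71, against 11.52 in normal MP. Of 10 measured genes of the SIRP and CD200R family and their adaptors, 1 was at least 2-fold higher in tumor MG, 2 in tumor MP and 3 in tumor Gr1+ cells, beside 2.44%, 1.65% and 2.88% of all genes, and 0 were lower. Cd200r4, one of the genes counted in tumor MP and tumor Gr1+ cells, was below background on all 12 arrays. Thbs1, which encodes the CD47-binding protein thrombospondin-1, was higher in all 3, at 11.43 in tumor MG against 8.61 (below background) in normal MG, at 11.48 in tumor MP against 9.76 in normal MP and at 12.17 in tumor Gr1+ against 9.14 in tumor Gr1- cells. Ptpn6, the phosphatase SHP-1 that SIRPa recruits, was above background on all 12 arrays and differed by 0.03 between tumor and normal MG.

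Cd47 was above background on all 12 arrays and had the narrowest range of the 10 genes, from 10.49 to 11.66. It measured 10.50 in tumor MG, 10.72 in tumor MP, 11.66 in tumor Gr1+ and 11.18 in tumor Gr1- cells, against 10.54 in normal MG and 11.40 in normal MP. Tumor MG and normal MG differed by 0.04, while tumor MP was 0.68 lower than normal MP, 1.7 SD or 1.60-fold. The second probe set of Cd47 was above background on all 12 arrays and followed the first with r = 0.915, but measured 10.07 in tumor MG against 10.63 in normal MG, where the first did not differ by more than 0.04. No comparison within the brain or between Gr1 populations reached 2-fold for Cd47. The genes with the highest r with Cd47 were Myo1c (r = 0.928), Sri (r = 0.924) and Cyria (r = 0.920).

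Ido1 was below background on all 12 arrays, between 7.36 and 9.41, with 8.17 in tumor MG, 8.16 in tumor MP, 7.86 in tumor Gr1+ and 7.36 in tumor Gr1- cells, against 8.28 in normal MG and 7.68 in normal MP. Its message was not detectable on these arrays, which does not show that it is absent. Of the 9 other kynurenine pathway genes, all measured, Kmo, the monooxygenase, was above background among the brain arrays at 9.67 in tumor Gr1+ and 10.51 in tumor Gr1- cells and at 10.20 in normal MP, but not in tumor MG (8.19), tumor MP (8.57) or normal MG (5.36). Wars, the tryptophanyl-tRNA synthetase, was above background on 7 arrays, with 10.19 in tumor Gr1+ and 9.74 in tumor Gr1- cells, 9.26 in tumor MP against 9.21 in normal MP, and 9.94 in blood Gr1+ cells. Cd200r1 was also below background on every array, with 6.92 in tumor MG and 6.87 in tumor MP, against 7.66 in normal MG and 8.55 in normal MP. The difference of -1.68 between tumor and normal MP is the 1 gene counted as lower in that comparison and carries little information for this reason. The transcript of its ligand, Cd200, was below background on all 12 arrays too.

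On the receptor side, 10 genes were measured that encode costimulatory or inhibitory receptors of T cells, or CD200. Not all of these receptors bind a product of the 10 genes described here. Lag3, an inhibitory receptor of T cells, was above background on all brain arrays but that of tumor Gr1+ cells, at 11.35 in tumor MG, 11.58 in tumor MP and 11.86 in tumor Gr1- cells, against 11.46 in normal MG and 9.51 in normal MP. In tumor Gr1+ cells it measured 8.25, 3.61 below tumor Gr1- cells, and it measured 8.15 in blood Gr1+ against 11.38 in blood Gr1- cells. The microglia markers, with medians of 8.26 in tumor Gr1+ against 11.76 in tumor Gr1- cells and, on the blood arrays, 8.52 in Gr1+ cells against 11.45 on that labelled Gr1-, were low on the same arrays. Icos was above background on 1 array, tumor Gr1- cells (7.44 in tumor Gr1+ against 9.52 in tumor Gr1- cells). In tumor Gr1+ against tumor Gr1- cells 6 of the 10 receptor genes were at least 2-fold lower and 0 higher, beside 5.12% and 2.88% of all genes, with a median difference of -1.06 beside 0.04 over all genes. Of the 6, Lag3 and Icos were above background in tumor Gr1- cells, and Ctla4, Btla, Cd200 and Cd96 were below it on both arrays, so that their differences carry little information. Pdcd1, which encodes PD-1, stayed near background everywhere, with 9.46 in tumor MG against 9.08 in normal MG and 9.53 in tumor MP against 8.98 in normal MP. Of 7 TNF family costimulators, 2 (Cd40 and Tnfsf14) were at least 2-fold higher in Gr1+ than Gr1- cells from tumors, beside 2.88% of all genes, and 1 was lower, beside 5.12%. Tnfsf14 was below background on both arrays. Cd40 was above background in Gr1+ cells, at 10.10 in tumor Gr1+ against 8.29 in tumor Gr1- cells, with a like order of 9.68 in blood Gr1+ against 8.21 in blood Gr1- cells. Tnfsf13b, which encodes the B cell factor BAFF, went the other way, at 8.29 in tumor Gr1+ against 9.82 in tumor Gr1- cells.

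By the count past 2-fold as deposited, the blood macrophage high arrays differed in more of the 10 genes than any other pair. With dim values raised to background, this ranking did not hold. In macrophage high cells, tumor-bearing against normal, 8 of the 10 genes were at least 2-fold higher and 1 was lower, beside 17.7% of all genes higher and 32.9% lower. The counts were 8 and 0 after median centring and 7 and 0 after quantile normalization. The gene counted as lower was Ido1, and it, Cd86 and Cd200r1 were below background on both arrays. Among olfactory receptor genes 58.2% passed 2-fold in this pair, counted either way. That share includes an offset between the arrays and does not measure scatter alone. The background was 9.02 on the tumor-bearing and 10.09 on the normal array, and the median difference of all genes was -0.72. The 8 genes counted as higher went against this offset. The SD of the olfactory receptor genes was 0.65, and 5 of the 10 genes differed by more than 2 SD. That number was the same in tumor MP against normal MP and in normal MP against normal MG. Sirpa measured 11.96 on the tumor-bearing array against 8.43 on the normal array, where it was below background, and was at least 3.66-fold higher. On the tumor-bearing array Cd80 measured 10.01, Havcr2 9.72 and Cd274 9.75, against 7.27, 7.41 and 8.34 for the same genes on the normal array. All of these values lay below the normal array's background of 10.09, so that no fold can be given. Lgals9 measured 10.44 on the tumor-bearing array against 9.40 on the normal array, where it was below background, and was at least 1.27-fold higher. Cd47, above background on both, measured 11.50 on the tumor-bearing array against 10.49 on the normal array.

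In macrophage low cells, tumor-bearing against normal, Sirpa differed the other way, and Havcr2, which has no usable direction in macrophage high cells, was lower. Of the 10 genes 0 were higher and 2 were lower, beside 3.29% and 6.06% of all genes. Sirpa measured 8.94 on the tumor-bearing array, below background, against 11.94 on the normal array, and was at least 6.42-fold lower. Havcr2 measured 7.41 on the tumor-bearing array against 9.63 on the normal array, at least 1.30-fold lower. On the tumor-bearing array Cd274 measured 8.99, Lgals9 10.30 and Cd47 11.50, against 9.44, 10.26 and 11.65 for the same genes on the normal array. In both comparisons the array with low Sirpa and Havcr2 was the one with NK cell markers. NK cell marker medians were 6.74 on the tumor-bearing high array against 11.12 on the normal high array, and 12.51 on the tumor-bearing low array against 7.39 on the normal low array. Neutrophil marker medians were 12.64 on the tumor-bearing high array against 7.41 on the normal high array, and 6.83 on the tumor-bearing low array against 11.55 on the normal low array. The effect of glioma on these genes in blood macrophages and the cell content of the arrays cannot be told apart.

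**Figure D4:**
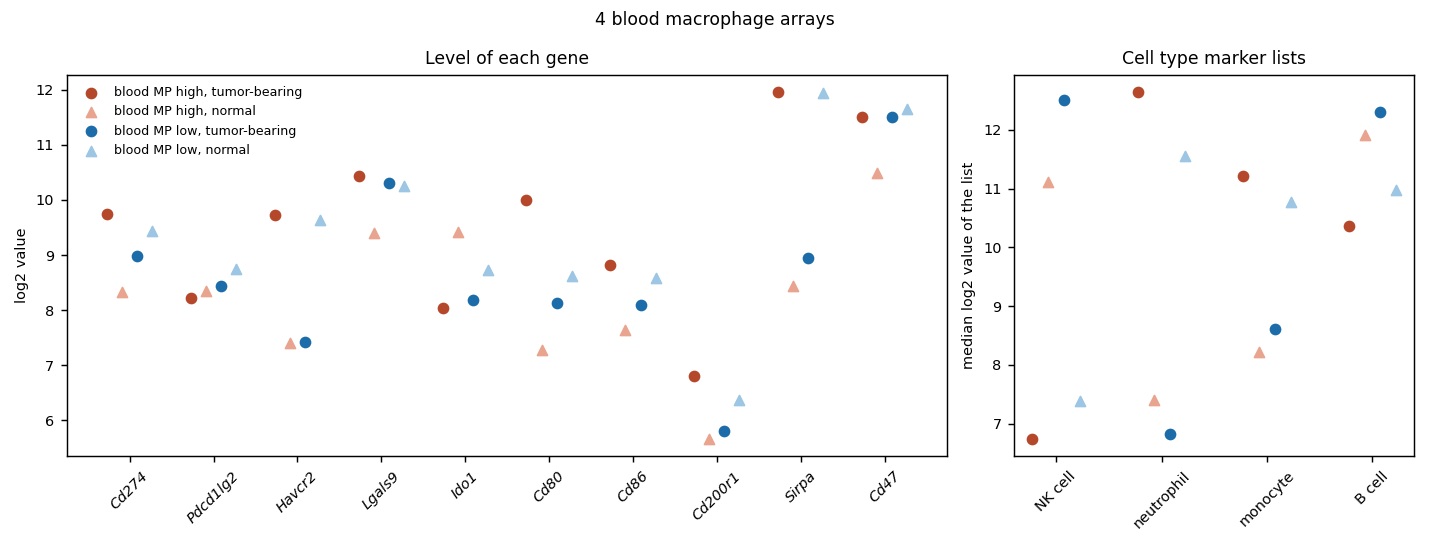
Log2 value of each of the 10 genes on the 4 blood macrophage arrays (left) and the median log2 value of 4 marker lists on the same arrays (right), with tumor-bearing as circles and normal as triangles. Sirpa and Havcr2 are low on the normal high and the tumor-bearing low array, which are the arrays with the high NK cell medians of 11.12 and 12.51.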

How the data were processed

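The series matrix held log2 signals of 28944 probe sets on 12 arrays. These log2 values were made by the authors with the Expression Console of Affymetrix and deposited as used here. RMA is named in the submitters' processing notes, without version or settings. The genome build and annotation release are not given in the sources used here. RNA was amplified in 2 cycles.

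GEO's platform annotation gave 21789 probe sets a single symbol, 1621 several and 5534 none. Only the first were used. Where a gene had several of these (999 genes), the probe set brightest over the 12 arrays was taken. No rescaling or filter was applied. In 9 comparisons, 1 array was subtracted from another and genes past 2-fold were counted each way. The methods name adjusted p-values, which single arrays cannot give, so there is no test, and the number of arrays limits the precision.

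The genes and lists were chosen with earlier results of these data known. Of 56 genes on 6 pathway lists 54 were measured, and of 82 on 9 marker lists 75. Named by rule were the 10 genes, the 3 genes most correlated with each of those above background on at least 3 arrays, and up to 4 list members with the largest difference in a comparison among those above background on 1 or both arrays. Other list genes (Cd200, Ctla4, Btla, Cd96, Tnfsf14, Cd200r4, Pdcd1, Icos, Wars, Tmem119, Ifngr1 and Icosl in some comparisons, Ptpn6) were named after their values were seen, for their role. Where 1 of 2 arrays was below background, the bound sets it to the background.

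Alternatives were median centring, quantile normalization, the mean of probe sets, dim values raised to background, a 1.5-fold threshold and the 90th percentile as background. The computation was tested on simulated data. Promoters came from RefSeq (GRCm38.p6). Python 3.11.15, numpy 2.4.6, pandas 2.3.3 and matplotlib 3.10.9 were used.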

Additional observations from a re-analysis of the deposited data

Results flagged for a closer look

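For 6 pairs of comparisons the measured values of a gene differed in opposite directions under the same contrast, and in no case was the difference between the comparisons tested. Havcr2 differed by -0.87 between tumor and normal MG and by 0.66 between tumor and normal MP. Sirpa differed by -0.67 in MG and by 0.50 in MP. Cd80 was lower in Gr1+ than in Gr1- cells of the tumor (-0.50) and higher in Gr1+ than in Gr1- cells of the blood (1.24), but with dim values raised to background the first is -0.028. In blood macrophage high and low cells, tumor-bearing minus normal, Cd274 differed by 1.42 and -0.45, Havcr2 by 2.32 and -2.22, and Sirpa by 3.53 and -2.99. With dim values raised, Cd274 differed by -0.33 in high and -0.19 in low cells and Havcr2 by -0.37 and -0.38, so that these do not oppose each other. The last 3 pairs rest on the arrays whose NK cell and neutrophil markers went with opposite labels in high and low cells.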

How the results depend on the processing

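Of the 25 differences of at least 2-fold over the 9 comparisons, 5 were of genes below background on both arrays. Of all 25, 23 were still 2-fold apart after median centring, 21 after quantile normalization, 24 with the mean of probe sets and 12 with dim values raised to background, where a gene below background on both arrays has no value. With dim values raised, the number of genes at least 2-fold apart became 0 instead of 2 in tumor against normal MG, 1 instead of 2 in blood Gr1+ against Gr1-, 1 instead of 2 in tumor against blood Gr1+, 2 instead of 9 in macrophage high and 1 instead of 2 in macrophage low cells. In macrophage high cells Cd274, Havcr2 and Cd80 then turned round, to -0.33, -0.37 and -0.081, by construction, since the normal array's background was the higher. With dim values raised, tumor against normal MP kept Cd274 (1.15) and Cd86 (1.16) and lost Cd200r1, which was below background on both arrays. The mean of probe sets left 1 instead of 2 in blood Gr1+ against Gr1-, where Cd80 dropped out. A 1.5-fold threshold gave 6 in tumor against normal MG, 7 in tumor against normal MP, 7 in normal MP against MG, 5 in tumor Gr1+ against Gr1-, 5 in blood Gr1+ against Gr1- and 4 in tumor against blood Gr1+.

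Scaling moved the split of higher and lower genes. Among all genes 2-fold apart, the share higher was 34.9% in macrophage high cells as deposited, 68.1% after median centring and 56.9% after quantile normalization. It was 40.4%, 51.2% and 51.3% in tumor against normal MG, 58.3%, 72.2% and 71.3% in normal MP against MG, 42.6%, 55.4% and 46.6% in blood Gr1+ against Gr1-, and 35.2%, 40.9% and 45.3% in macrophage low cells. The median difference of all genes moved by over 0.1 in macrophage high cells, where it was -0.72 as deposited, -0.33 after median centring and -0.35 after quantile normalization, in normal MP against MG (-0.22, -0.10 and -0.11), in blood Gr1+ against Gr1- cells (-0.07, 0.05 and 0.01) and in tumor against normal MG (-0.09, -0.01 and 0.01). No paired analysis was possible because each condition had 1 array.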
